A study of Rattus norvegicus with 52 samples.

Results

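Bile acid handling in the rat hepatocyte was followed through 6 genes on 52 liver arrays: Cyp7a1 (probe set j05460_s_at), Cyp27a1 (m38566mrna_s_at), Baat (d43964_at), Slc10a1 (m77479_at), Slco1a1, also called Oatp1 (l19031_at), and Slco1a4, also called Oatp2 (u88036_at). They were taken by the GenBank accession at the start of the probe set ID, from a list of 8 accessions for 7 genes. That gave 6 of the 8799 rows of the table, 1 row a gene, and the 2 accessions without a row were the second of Cyp7a1 and that of Abcb11. The table pairs no ID with a gene symbol, so the names rest on those accessions. An ID that ends in _s_at, as for Cyp7a1 and Cyp27a1, marks a probe set that may also bind related transcripts. All 6 probe sets were above the floor of the intensity scale on at least 1 array of every fit and were tested in every comparison.

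The liver came from F344 rats, an inbred strain, and the sections were called untreated (control) or treated with clofibric acid (CA) at 0.29% or 0.54%. CA is a fibrate, a drug of the class that activates the nuclear receptor PPARα. There were 22 arrays of entire sections (8 control, 8 at 0.29% and 6 at 0.54%) and 20 of stained sections (8, 7 and 5). Dehydrated sections and sections called LCM-reference-time gave 1 array at each of the 3 doses, and microdissected liver, taken by laser capture microdissection (LCM) of chosen regions of a section, gave 2 control arrays and 1 array at each CA dose. No label gives the route or length of treatment, the age and sex of the rats, or the cells aimed at by the laser. Arrays are not tied to animals in the labels. The p-values therefore cover only array-to-array spread, part of which may be technical.

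Bile acids are made from cholesterol in hepatocytes. Cyp7a1 is the rate-limiting enzyme of the classical route, Cyp27a1 is the mitochondrial sterol 27-hydroxylase that opens the alternative route and also oxidises the side chain, and Baat joins the finished bile acid to taurine or glycine. Slc10a1 (Ntcp) brings conjugated bile acids back from portal blood together with sodium, Slco1a1 and Slco1a4 take up bile acids and other organic anions without sodium, and Abcb11 pumps bile salts into the canaliculus. Fibrates and bile acids both act on this set through nuclear receptors, PPARα and FXR, which bind DNA as partners of RXR.

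In entire sections the RNA of the transporter Slco1a4 and of the conjugating enzyme Baat was lower with CA at both doses. Slco1a4 was 1.50-fold lower at 0.29% CA and 1.68-fold lower at 0.54% CA, and Baat was 1.24-fold and 1.32-fold lower. On the deposited scale centred on each array's median, only the Slco1a4 call at 0.54% CA was kept. With all 15 groups in the fit neither gene was called at 0.29% CA. In stained sections both were lower at 0.54% CA, Slco1a4 by 2.53-fold and Baat by 1.57-fold. That Baat call held in only 3 of 13 fits that left out 1 array. With the GAPDH 3'/5' ratio, a measure of RNA quality described below, as a covariate, neither gene was called there. In microdissected liver Slco1a4 was 3.03-fold lower and Slc10a1 1.64-fold lower, while Cyp27a1 was 1.51-fold higher. The microdissected calls rest on 4 arrays: without 1 or the other of the 2 controls, Slc10a1 was called in 0 of 2 fits and Slco1a4 and Cyp27a1 in 1 of 2 each, and on the deposited scale 1 of the 4 called genes, Slco1a1, was called. The intensity of Cyp7a1 differed by up to 5.07-fold between control arrays of entire sections, and the gene did not pass the test in any comparison. Folds between groups are on the quantile-normalized log2 scale. Intensities printed below are the deposited ones, and a level is never compared between probe sets.

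Sequences before the transcript starts, called upstream below, were read from RefSeq's table for the build GRCr8, which held 5 of the 6 genes. Slco1a4 (chr4:176441104-176495846, minus strand) and Slco1a1 (chr4:176606924-176682027, minus strand) lie 111 kb apart. Their 250 bases before the start of the transcript are shown as a pair, and capitals mark stretches of at least 8 aligned bases without a difference. With CA, Slco1a4 was called lower in both replicated preparations and Slco1a1 in neither. Slco1a1 was dim, with standard errors of 0.26 to 0.41 there, so its lack of a call does not show a lack of response. In microdissected liver both were lower (log2 differences of -1.60 for Slco1a4 and -2.92 for Slco1a1, the latter resting on the floor). Whether the genes differed in response, or the sequences bear on it, was not tested. Each sequence is the strand of the gene, 5′ to 3′. Slco1a4 is chr4:176495847-176496096 and lies outside the recorded gene. Slco1a1 is chr4:176681993-176682242, and 35 of its bases lie inside the recorded gene, since the transcript of the table starts within it.
Slco1a4: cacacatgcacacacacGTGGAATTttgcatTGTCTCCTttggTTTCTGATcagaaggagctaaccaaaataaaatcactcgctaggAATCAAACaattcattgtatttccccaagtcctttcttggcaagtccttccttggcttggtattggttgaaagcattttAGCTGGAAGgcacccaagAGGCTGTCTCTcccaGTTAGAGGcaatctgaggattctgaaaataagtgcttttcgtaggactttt
Slco1a1: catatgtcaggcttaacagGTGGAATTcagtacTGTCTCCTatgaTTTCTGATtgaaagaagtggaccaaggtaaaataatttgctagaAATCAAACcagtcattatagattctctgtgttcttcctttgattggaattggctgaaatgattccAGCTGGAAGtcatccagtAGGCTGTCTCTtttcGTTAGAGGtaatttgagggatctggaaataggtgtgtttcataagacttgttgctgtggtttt
A global alignment matched 176 of the 250 bases of one with the other (70.4% of the window), with 7 such stretches and a longest one of 11 bases. The other 9 pairs among the 5 upstream sequences matched between 46.4% and 53.6% of the window.

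The upstream sequences were also searched on both strands for AGGTCA, the core hexamer of nuclear receptor sites, for 2 hexamers 1 base apart in the same direction (DR1, the arrangement bound by PPARα with RXR) or facing each other (IR1, bound by FXR with RXR), for CAAGGTCA or CAAGGCCA, which contain or resemble the hexamer and are bound by receptors acting alone, and for GTTAAT, part of the HNF1 site. The hexamer was present upstream of Cyp27a1 and Slc10a1, as in 14.1% of the 33469 upstream sequences in the table. Cyp27a1 also held the extended site, as did 3.17% of all, overlapping its first hexamer, and Slc10a1 held GTTAAT 20 to 15 bases before the start, as did 6.45% of all. DR1 was found in none of the 5 and in 0.0508% of all, and IR1 in none of the 5 and in 0.0269% of all. The 2 sequences with matches are shown with the matches in capitals. Cyp27a1 is chr9:83713282-83713531, plus strand, which lies inside the recorded gene (chr9:83712402-83743222), and Slc10a1 is chr6:106357945-106358194, minus strand (gene at chr6:106344319-106357944).
Cyp27a1: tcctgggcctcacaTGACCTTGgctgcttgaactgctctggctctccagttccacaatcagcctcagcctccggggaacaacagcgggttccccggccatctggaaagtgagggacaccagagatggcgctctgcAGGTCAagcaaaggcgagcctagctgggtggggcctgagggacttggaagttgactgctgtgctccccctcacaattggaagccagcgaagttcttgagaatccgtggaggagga
Slc10a1: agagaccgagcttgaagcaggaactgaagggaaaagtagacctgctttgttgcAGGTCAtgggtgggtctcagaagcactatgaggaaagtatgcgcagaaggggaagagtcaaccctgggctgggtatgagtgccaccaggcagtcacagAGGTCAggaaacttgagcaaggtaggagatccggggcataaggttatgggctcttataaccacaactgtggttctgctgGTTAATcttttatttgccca
These are matches of letters in a window of 250 bases and not sites of binding. Baat (chr5:68647166-68656137), Slco1a1 and Slco1a4 held none of the searched letters in the window.

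The 6 arrays in doubt on technical grounds were 3 of entire sections whose GAPDH 3'/5' ratio exceeded 4 (1 in each dose group) and 3 of stained sections whose 5S rRNA probe set exceeded 200 (also 1 in each). The GAPDH limit was applied to entire sections only and the 5S rRNA limit to stained sections only. Most stained arrays were over a GAPDH ratio of 4 and were not marked for it. Of the 4 microdissected arrays, control replicate 2 and both CA arrays were also over the 5S rRNA limit, at 285, 319 (0.29%) and 754 (0.54%), as was the LCM-reference-time array at 0.29% CA, at 587. A high GAPDH ratio, 3' signal over 5' signal, goes with loss of the 5' ends of RNA. Its median was 1.54 in entire sections and 8.45 in stained sections, and within stained sections it was 10.2 in controls, 7.32 at 0.29% CA and 4.47 at 0.54% CA. Lists of hepatocyte and other cell markers were not used here, because 0 of 8740 accessions matched the gene table. The 2% trimmed mean of an array ran from 39.4 to 128 around a median of 109.5, with the lowest values in LCM-reference-time and microdissected liver. In liver sections fewer hepatocytes and less RNA per hepatocyte cannot be told apart.

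**Figure D1:**
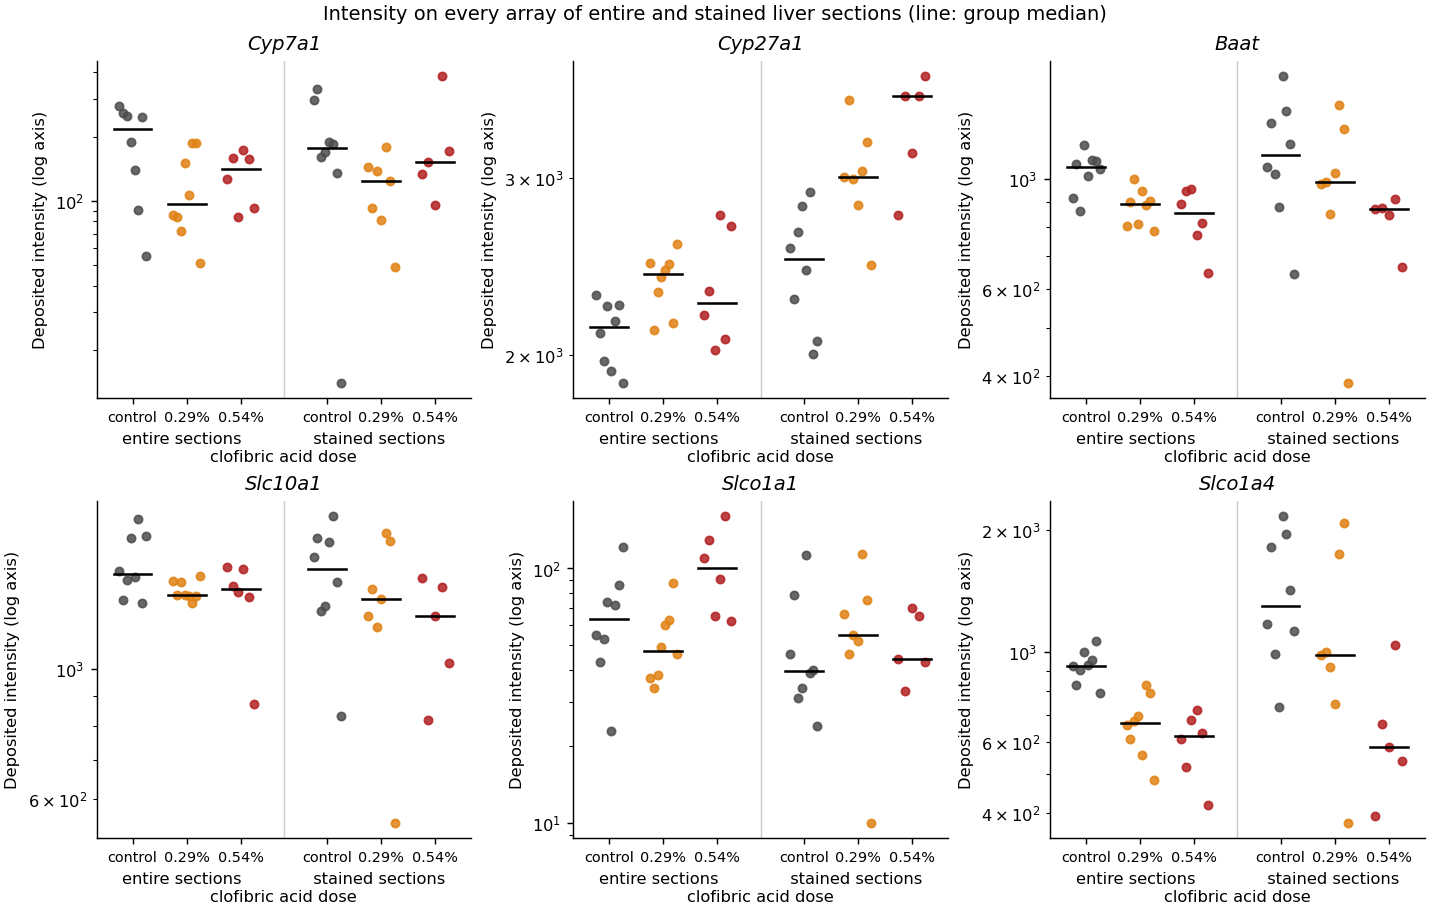
Deposited intensity (log axis) of the 6 probe sets on each array of entire sections (8, 8 and 6 arrays) and stained sections (8, 7 and 5 arrays) by CA dose, with a line at each group's median. In entire sections all 6 arrays at 0.54% CA, from 419 to 719, lay below all 8 Slco1a4 controls, from 790 to 1064, whereas Cyp7a1 spread from 55 to 279 within the controls alone. How many other probe sets separated in this way was not computed.

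Synthesis was examined first. Cyp7a1 had an intensity of 189 ± 84.4 (SD, n = 8) in entire controls, with a lowest value of 55, a median of 218 and a highest of 279. At 0.29% CA it was 115.5 ± 52.5 (SD, n = 8), from 51 through a median of 96.5 to 187, and at 0.54% CA 132 ± 37.1 (SD, n = 6), from 84 through 141.5 to 173. Low arrays were present in the controls as well as in both CA groups, and the groups overlapped. The log2 difference from control was -0.66 ± 0.34 (SE, limma adjusted p = 0.277) at 0.29% and -0.39 ± 0.37 (SE, limma adjusted p = 0.552) at 0.54%. The first was called without entire control replicate 8, the array at 55 (-0.91, adjusted p = 0.046), and with array quality weights (-0.99, adjusted p = 0.029, over alternatives 0.029 to 0.585).

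Cyp7a1 spread as widely in stained sections. The 8 controls ran from 14 through a median of 177.5 to 334, and the 7 arrays at 0.29% CA from 49 through 124 to 179. At 0.54% CA the 5 arrays were at 133, 152, 96, 383 and 171. The control at 14 and the CA array at 383 were the lowest and the highest of all, and the groups overlapped. The log2 differences were -0.51 ± 0.50 (SE, limma adjusted p = 0.768) and -0.05 ± 0.56 (SE, limma adjusted p = 0.992). Without stained control replicate 8, the array at 14, they were -0.98 (adjusted p = 0.0856) and -0.53 (adjusted p = 0.409). The value at 0.54% ran from -0.53 to 0.17 (without CA replicate 3, the array at 96) over the fits that left out 1 array, so it has no settled direction. At standard errors of 0.34 to 0.56, a log2 difference as large as that of Slco1a4 at 0.29% CA in entire sections (-0.59) was not detectable.

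Cyp27a1 was the steadiest enzyme, with a coefficient of variation of 7.55% in entire controls, against 9.77% for Baat and 44.8% for Cyp7a1. Its intensity was 2101 ± 159 (SD, n = 8) in entire controls (1876 lowest, 2132 median, 2292 highest), 2363.5 ± 160.3 (SD, n = 8) at 0.29% CA (2116, 2408.5 and 2577) and 2341 ± 313 (SD, n = 6) at 0.54% CA (2021, 2254 and 2757). The CA medians lay above the control median, but the groups overlapped. The log2 differences of 0.28 ± 0.10 (SE, limma adjusted p = 0.0695) and 0.30 ± 0.10 (SE, limma adjusted p = 0.0559) did not pass the test. Under alternatives the adjusted p ran from 0.0361 to 0.643 at 0.29%, where a floor of 20 and a trend in the variance prior gave calls, and from 0.0294 to 0.645 at 0.54%, where those and a fit of all 15 groups did. Leaving out entire control replicate 7 gave calls at 0.29% (adjusted p = 0.0439) and 0.54% (adjusted p = 0.0341), and at 0.54% so did leaving out control replicate 1 (adjusted p = 0.048) or CA replicate 1 or 3 (adjusted p = 0.0464 and 0.0167).

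In stained sections Cyp27a1 had a median of 2493 in controls (2004 to 2902) and of 3008 at 0.29% CA (2459 to 3582). The 5 arrays at 0.54% CA were at 2755, 3616, 3177, 3616 and 3782. Of these, 4 lay above every control and 1 among them. The log2 differences of 0.20 ± 0.12 (SE, limma adjusted p = 0.557) and 0.37 ± 0.13 (SE, limma adjusted p = 0.12) did not pass the test. The second did with a floor of 20 (adjusted p = 0.0171), all 15 groups in the fit (0.0128) or a trend in the variance prior (0.0439).

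Baat, the conjugating enzyme, was lower with CA. In entire sections its intensity was 1035 ± 101 (SD, n = 8) in controls (865 lowest, 1062 median, 1176 highest), 881 ± 75.1 (SD, n = 8) at 0.29% CA (785, 894 and 1002) and 839 ± 119 (SD, n = 6) at 0.54% CA (647, 855 and 957). The CA groups lay low but overlapped the controls in intensity, and at 0.54% they did not overlap once normalized. How many other probe sets did not overlap was not computed, here or below. The log2 differences were -0.31 ± 0.08 (SE, limma adjusted p = 0.0076) and -0.41 ± 0.08 (SE, limma adjusted p = 0.00116), and both were called in every fit that left out 1 array (16 and 14 fits). On the deposited scale centred on each array's median, neither was called (-0.23, adjusted p = 0.396, and -0.30, adjusted p = 0.198). When the fit took in all 15 groups the 0.29% call was lost (adjusted p = 0.112), so that the adjusted p ran over alternatives from 0.00142 to 0.396 at 0.29% and from 0.000167 to 0.198 at 0.54%.

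In stained sections the 8 Baat controls ran from 644 through a median of 1120.5 to 1615, and the 7 arrays at 0.29% CA from 388 through 986 to 1414. The 5 arrays at 0.54% CA were at 872, 875, 846, 911 and 666. They fell in the lower part of the control range, and after normalization below all controls. The log2 difference was -0.36 ± 0.17 (SE, limma adjusted p = 0.388) at 0.29% and -0.66 ± 0.19 (SE, limma adjusted p = 0.041) at 0.54%. The second was called in only 3 of 13 fits that left out 1 array, with adjusted p from 0.024 to 0.104. The 3 were those without stained control replicate 3, 4 or 8.

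Of the uptake transporters, Slc10a1, the sodium-dependent carrier, had an intensity of 1508 ± 185 (SD, n = 8) in entire controls (1293, median 1451, 1798), 1359 ± 50.3 (SD, n = 8) at 0.29% CA (1294, 1335, 1437) and 1317 ± 229 (SD, n = 6) at 0.54% CA (870, 1367, 1492). The 0.29% group was narrow and lay within the control range in intensity. After normalization its lowest array, at 10.07 on the log2 scale, lay below the lowest control, at 10.14. The log2 differences of Slc10a1 were -0.15 ± 0.08 (SE, limma adjusted p = 0.293) and -0.20 ± 0.09 (SE, limma adjusted p = 0.144). In stained sections they were -0.32 ± 0.16 (SE, limma adjusted p = 0.441) and -0.48 ± 0.18 (SE, limma adjusted p = 0.126). At 0.54% CA the 5 stained arrays were at 1425, 820, 1232, 1376 and 1023, against controls from 830 through 1478.5 to 1815. With a floor of 20 (adjusted p = 0.0498) or a fit of all 15 groups (adjusted p = 0.00545) that difference was called.

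Slco1a4 had the smallest adjusted p of the 6 genes at both doses in entire sections. Its intensity was 924 ± 88.0 (SD, n = 8) in controls (790 lowest, 925.5 median, 1064 highest), 662.5 ± 115 (SD, n = 8) at 0.29% CA (484, 668 and 829) and 596 ± 109.9 (SD, n = 6) at 0.54% CA (419, 620.5 and 719). At 0.29% CA 2 of the 8 arrays, at 793 and 829, lay above the lowest control, and at 0.54% CA no array did. After normalization neither CA group overlapped the controls. How often other probe sets separated like this was not computed. The log2 differences were -0.59 ± 0.11 (SE, limma adjusted p = 0.000687) and -0.75 ± 0.12 (SE, limma adjusted p = 9.17e-05), called in every fit that left out 1 array. At 0.54% the call held in all 9 alternatives, with adjusted p from 8.18e-06 to 0.036. At 0.29% it was lost on the deposited scale (-0.49, adjusted p = 0.119) and when the fit took in all 15 groups (adjusted p = 0.0773), and the adjusted p ran from 0.000151 to 0.119.

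In stained sections Slco1a4 varied more within groups. The 8 controls ran from 732 through a median of 1298.5 to 2163, and the 7 arrays at 0.29% CA from 378 through 983 to 2079. The 5 arrays at 0.54% CA were at 394, 663, 584, 1041 and 539. Of these, 4 lay below every control and 1 among them. The log2 difference was -0.53 ± 0.28 (SE, limma adjusted p = 0.48) at 0.29% and -1.34 ± 0.31 (SE, limma adjusted p = 0.0101) at 0.54%, the latter called in all 13 fits that left out 1 array. The GAPDH ratio fell with dose in these groups, and with it as a covariate the difference at 0.54% was -1.03 ± 0.31 (SE, limma adjusted p = 0.0758; over alternatives 4.09e-05 to 0.0758) and that of Baat -0.52 (adjusted p = 0.2; over alternatives 0.000396 to 0.2).

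Slco1a1, which lies 111 kb from Slco1a4, was dim. Its intensity was 65.9 ± 29.7 (SD, n = 8) in entire controls (23, median 63.5, 121), 51.9 ± 18.0 (SD, n = 8) at 0.29% CA (34, 47.5, 88) and 103 ± 38.1 (SD, n = 6) at 0.54% CA (62, 100.5, 160). The highest values were at the higher dose, and all groups overlapped. The log2 differences from control were -0.30 ± 0.26 (SE, limma adjusted p = 0.574) and 0.64 ± 0.28 (SE, limma adjusted p = 0.143). The second was called with array quality weights (0.78, adjusted p = 0.0168; over alternatives 0.0168 to 0.304). In stained sections the 5 arrays at 0.54% CA were at 44, 33, 70, 65 and 43, within the control range of 24 to 113, and the log2 differences were 0.0058 ± 0.37 (SE, limma adjusted p = 1) and -0.16 ± 0.41 (SE, limma adjusted p = 0.88).

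**Figure D2:**
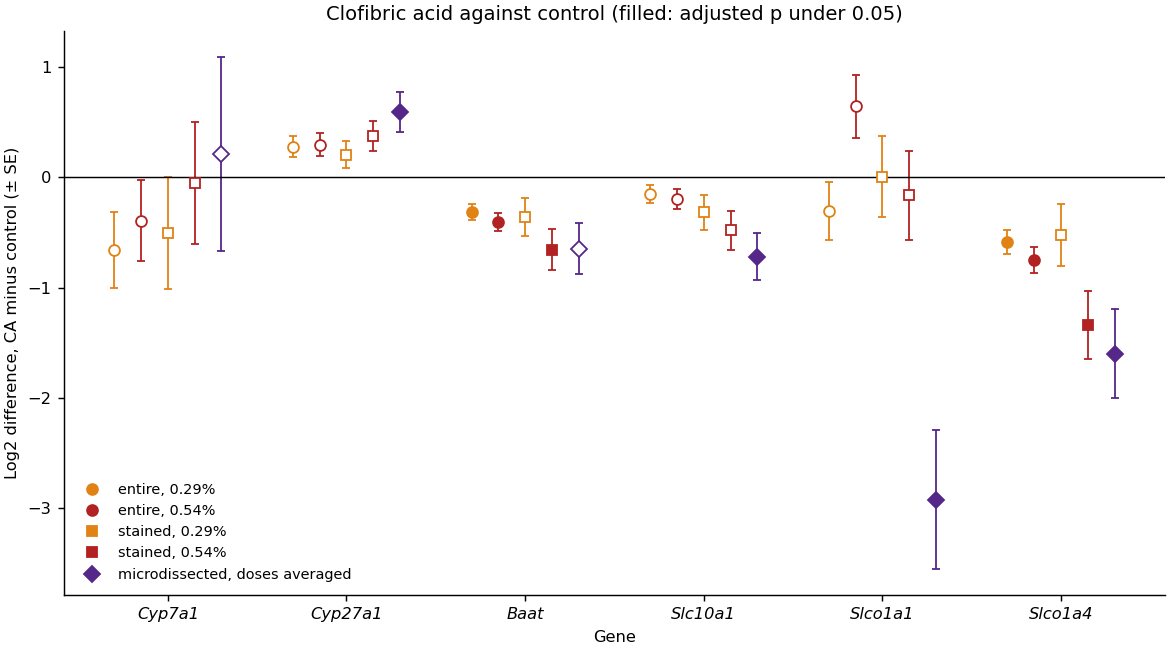
Log2 difference of CA against control (± SE) for the 6 genes in entire sections, stained sections and microdissected liver, with filled symbols where the adjusted p was under 0.05. Slco1a4 lay below 0 in all 5 comparisons, from -0.53 to -1.60, and Cyp27a1 above 0 in all 5, from 0.20 to 0.59, of which 1 passed; the value of Slco1a1 in microdissected liver, -2.92, rests on an array raised to the floor.

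Counted together, 2 of the 6 genes were called at 0.29% CA in entire sections, both lower, where 11.2% of the 7804 probe sets tested were called in either direction, and the same 2 at 0.54% CA, where 15.8% were called. In stained sections none was called at 0.29% CA (3.61% of 7913 called; 1 of the 6 had an unadjusted p under 0.05, by limma) and 2 were called at 0.54% CA (6.31%). The median log2 difference of the 6 genes was -0.31 and -0.29 in entire sections and -0.34 and -0.32 in stained sections, beside -0.0075 and -0.0075, and -0.010 and -0.045, over all probe sets tested. With 6 genes these counts are a description of the genes and not a test of the pathway.

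Between the doses no difference was called. In entire sections 1.01% of probe sets were called between 0.54% and 0.29% CA, and of the 6 genes Slco1a1 alone had an unadjusted p under 0.05. Of its 6 arrays at the higher dose, 4 lay above the highest at the lower one. The log2 difference was 0.95 ± 0.28 (SE, limma adjusted p = 0.143), and it was called with array quality weights (1.17, adjusted p = 0.00559; over alternatives 0.00559 to 0.398). Within groups of entire sections Slco1a1 went with the GAPDH ratio. The deviations of both from their group means had a Pearson r of 0.61 and a Spearman rho of 0.71 over 22 arrays (permutation p = 0.00649 and 0.00063, adjusted over 42 relations 0.0454 and 0.00882), with r = 0.74 without the 2 arrays farthest from the median of Slco1a1 and 0.46 without the 3 arrays in doubt. With the GAPDH ratio as a covariate the dose difference was 0.74 (adjusted p = 0.19). In stained sections 0.0632% were called between doses, and Slco1a4 alone had an unadjusted p under 0.05 (-0.82 ± 0.32, SE, limma adjusted p = 0.951).

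The preparation itself was compared in controls. Stained controls were higher than entire controls for 3 of the 6 genes, where 30.2% of 8191 probe sets were called. Slco1a4 was 1.73-fold higher (log2 0.79 ± 0.20, SE, adjusted p = 0.00254), Baat 1.29-fold (0.36 ± 0.12, SE, adjusted p = 0.0156) and Cyp27a1 1.27-fold (0.35 ± 0.09, SE, adjusted p = 0.00474), and each overlapped between the groups. Slc10a1, Slco1a1 and Cyp7a1 differed by 0.15 ± 0.11, 0.06 ± 0.32 and 0.26 ± 0.43 (SE, limma adjusted p = 0.335, 0.941 and 0.711). Over all probe sets 1347 were called higher and 1128 lower, with a median difference of 0.09. On the deposited scale centred on each array's median, the median difference was 0.42 and 74.2% of the calls were higher. Slc10a1 was called there as well (0.43, limma adjusted p = 0.0387, over alternatives 0.0387 to 0.856). With the GAPDH ratio as a covariate 4.88% of probe sets and none of the 6 genes were called, and Slco1a4 was then 0.22 ± 0.27 (SE, limma adjusted p = 0.805; over alternatives 0.000965 to 0.805). The GAPDH ratio ran from 2.59 to 18.9 in stained and from 1.18 to 6.49 in entire arrays, so its share and that of the staining cannot be told apart.

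Whether CA acted differently in stained and in entire sections was tested as an interaction. None of the 6 genes was called at 0.29% CA (0.0855% of 8191 called) or at 0.54% CA (0.134%), and none had an unadjusted p under 0.05 by limma at either dose. The difference of the 2 effects of 0.54% CA was -0.59 ± 0.32 for Slco1a4 (SE, limma adjusted p = 0.544), -0.25 ± 0.18 for Baat (SE, limma adjusted p = 0.658) and -0.81 ± 0.50 for Slco1a1 (SE, limma adjusted p = 0.596). The larger fall of Slco1a4 in stained sections was thus not distinguishable from that in entire sections at this precision.

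In microdissected liver 2 control arrays were set against 1 array at each CA dose, with the doses averaged and the spread pooled over all 15 groups, which assumes that the lone arrays vary like the others. Here 1 of the 6 genes was higher and 3 were lower, where 12.9% of 8318 probe sets were called. Slco1a4 was at 2182 and 825 in the controls, 273 at 0.29% CA and 610 at 0.54% CA, and its log2 difference was -1.60 ± 0.40 (SE, limma adjusted p = 0.00561). Both CA arrays were below both controls, although the 2 controls differed by 2.64-fold in intensity. The trimmed means of these arrays were 79.3 and 47.2 in the controls, 45.5 at 0.29% and 94.1 at 0.54%, which the normalization takes out.

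Slc10a1 was at 1515 and 802 in the microdissected controls and at 475 and 947 with CA, and its normalized difference was -0.72 ± 0.21 (SE, limma adjusted p = 0.0196). In intensity the array at 0.54% CA lay between the 2 controls, and only the scaled values set both CA arrays below both controls. Cyp27a1 was at 2288 and 947, then 2076 and 3294, with a difference of 0.59 ± 0.18 (SE, limma adjusted p = 0.0245). Baat, at 1272 and 506 and then 335 and 819, differed by -0.65 ± 0.23 (SE, limma adjusted p = 0.0572), and Cyp7a1, at 86 and 17 and then 12 and 166, by 0.21 ± 0.88 (SE, limma adjusted p = 1). The Cyp7a1 arrays were far apart in both groups.

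Slco1a1 was at 34 and 41 in the microdissected controls, at 0 at 0.29% CA and at 16 at 0.54% CA. The array at 0 was raised to the floor of 4, so the fitted difference of -2.92 ± 0.63 (SE, limma adjusted p = 0.00125) depends on that floor, and with a floor of 20 it was -1.52 (adjusted p = 0.0935; over alternatives 0.000172 to 0.0935). Leaving out microdissected control replicate 1 lost the calls of Slc10a1 (adjusted p = 0.0788) and Slco1a4 (adjusted p = 0.0632). Leaving out replicate 2 lost those of Slc10a1 (adjusted p = 0.0666) and Cyp27a1 (0.38, adjusted p = 0.32) and gained that of Baat (adjusted p = 0.0348). The GAPDH ratio was 14.3 and 9.22 in the controls and 6.20 and 3.02 with CA. With it as a covariate the same 4 genes were called, as were 11.1% of all probe sets tested. Their 5S rRNA values were 97 and 285 in the controls and 319 and 754 with CA, so both CA arrays behind these calls were over the limit of 200, and the part of this in the result was not tested.

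The remaining sections, dehydrated and LCM-reference-time, had a single array for each dose and no test. Cyp27a1 was at 2562 in the dehydrated control and at 3527 and 3865 at 0.29% and 0.54% CA, and at 1030, 2110 and 3667 in LCM-reference-time sections, whose trimmed means were 39.4, 62.0 and 84.3. After normalization its differences from control were 0.52 and 0.81 in dehydrated and 0.36 and 0.72 in LCM-reference-time sections. With these, its CA means lay above the control mean at both doses in all 5 preparations, by 0.20 to 0.81 on the log2 scale.

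Slco1a4 was at 585 in the LCM-reference-time control and at 327 and 428 with CA (log2 differences of -1.32 and -1.46). In dehydrated sections the order was turned, with 1275 in the control and 1634 and 1463 with CA (0.40 and 0.56). The dehydrated arrays had GAPDH ratios of 6.36, 11.8 and 14.3 in the order of dose, opposite to the order in stained sections, and their part in this was not tested. Slc10a1 was at 1441, 1361 and 1372 in dehydrated and at 515, 546 and 843 in LCM-reference-time sections (log2 differences of 0.04 and 0.30, and of -0.46 and -0.40). Baat was at 1227, 1262 and 784 and at 363, 432 and 747 (0.14 and -0.24, and -0.35 and -0.12).

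Slco1a1 was at 72, 96 and 62 in dehydrated sections and at 41, 6 and 20 in LCM-reference-time sections. Low CA values of Slco1a1 thus appeared in LCM-reference-time and in microdissected liver, at 0 to 20 on 4 arrays, beside 33 to 160 on all but 1 of the 26 CA arrays of entire and stained sections. These intensities are not scaled between arrays. The 4 arrays had trimmed means of 62.0, 84.3, 45.5 and 94.1, beside a median of 109.5 over all arrays. Their 5S rRNA values were 587, 152, 319 and 754. The 1 stained array, at 10, had a 5S rRNA value of 241. The part of array quality in this was not tested. Cyp7a1 was at 190, 278 and 214 in dehydrated and at 18, 48 and 100 in LCM-reference-time sections, where its control was the lowest of the 3.

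**Figure D3:**
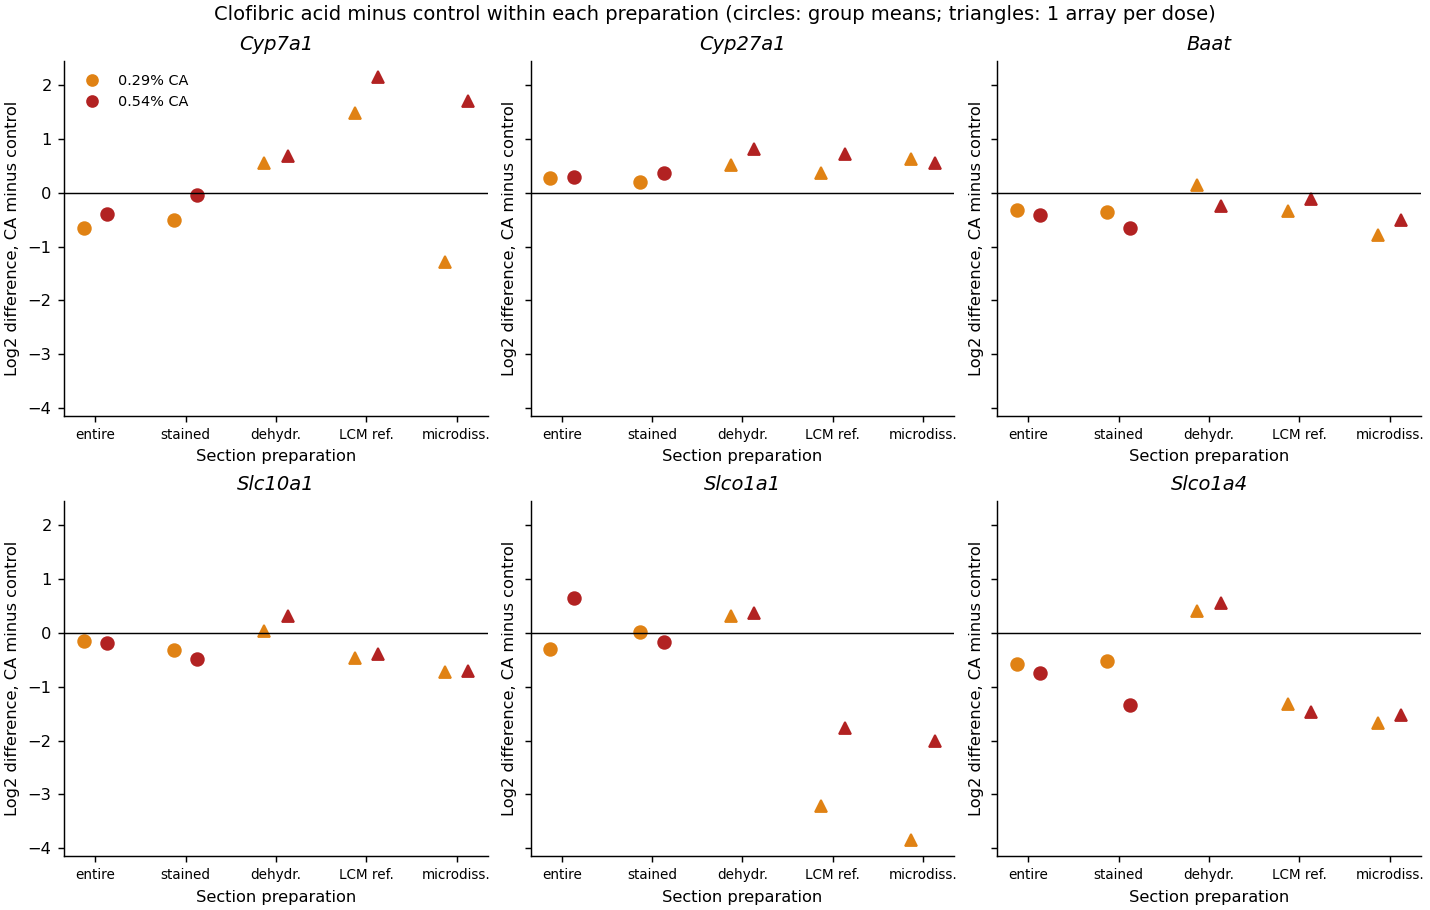
Difference of the normalized log2 level between CA and control in the 5 section preparations (circles, group means of entire and stained sections; triangles, 1 CA array against 1 control, or 2 in microdissected liver). Cyp27a1 lay between 0.20 and 0.81 throughout, Slco1a4 was below 0 in all preparations but the dehydrated one, and Cyp7a1 ran from -1.28 to 2.14; the value of Slco1a1 at 0.29% CA in microdissected liver rests on the floor.

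Some of the genes also varied together between arrays of one group. How often other pairs of probe sets do so was not computed. No relation below is therefore shown to be particular to these genes. Over deviations from the group means, 6 of 42 relations (15 gene pairs and 6 with the GAPDH ratio, in each of 2 preparations) had an adjusted p under 0.05 by both Pearson's r and Spearman's rho, and 4 more by Spearman's rho alone. In stained sections (20 arrays) Baat went with Slc10a1 (Pearson r = 0.77, Spearman rho = 0.77, permutation p = 0.00014 and 0.00031, adjusted 0.00588 and 0.00882), with Slco1a4 (r = 0.76, rho = 0.76, permutation p = 0.00068 and 0.00049, adjusted 0.00739 and 0.00882) and with Slco1a1 (r = 0.74, rho = 0.65, permutation p = 0.00088 and 0.00502, adjusted 0.00739 and 0.0290). Slc10a1 went with Slco1a1 (r = 0.71, rho = 0.68, permutation p = 0.00048 and 0.0022, adjusted 0.00739 and 0.0213). Without the 2 farthest arrays these r values were 0.72, 0.67, 0.71 and 0.66, and without the 3 arrays in doubt 0.71, 0.82, 0.65 and 0.65.

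The 4 relations that passed by rank alone were also in stained sections, and 3 of them were with Cyp7a1. Cyp7a1 had a rho of 0.57 with Slc10a1 (permutation p = 0.0109, adjusted 0.0457), 0.64 with Slco1a1 (permutation p = 0.00312, adjusted 0.0218) and 0.60 with Slco1a4 (permutation p = 0.00603, adjusted 0.0290). Their r values were 0.49, 0.50 and 0.28 (permutation p = 0.0103, 0.0157 and 0.224, adjusted 0.0549, 0.0661 and 0.392), and without the 2 arrays farthest for Cyp7a1 0.35, 0.34 and 0.54. Slco1a1 had a rho of 0.63 with Slco1a4 (permutation p = 0.00621, adjusted 0.0290) and an r of 0.60 (permutation p = 0.0107, adjusted 0.0549), or 0.57 without the 2 farthest arrays.

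In entire sections (22 arrays) the same 4 pairs had r values of -0.07, 0.07, -0.09 and 0.23, and the difference between the preparations was not tested. Cyp7a1 and Cyp27a1, the enzymes that open the 2 routes of synthesis, varied together there (r = 0.60, rho = 0.60, permutation p = 0.00084 and 0.00253, adjusted 0.00739 and 0.0213), with r = 0.61 without the 2 farthest arrays and 0.59 without the arrays in doubt. In stained sections that pair had an r of 0.12 (permutation p = 0.622, adjusted 0.792). In stained sections the GAPDH ratio had an r of 0.51 with Slco1a4 (permutation p = 0.0215, adjusted 0.0794) and 0.40 with Baat (permutation p = 0.0625, adjusted 0.175), and its part in these relations was not tested.

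**Figure D4:**
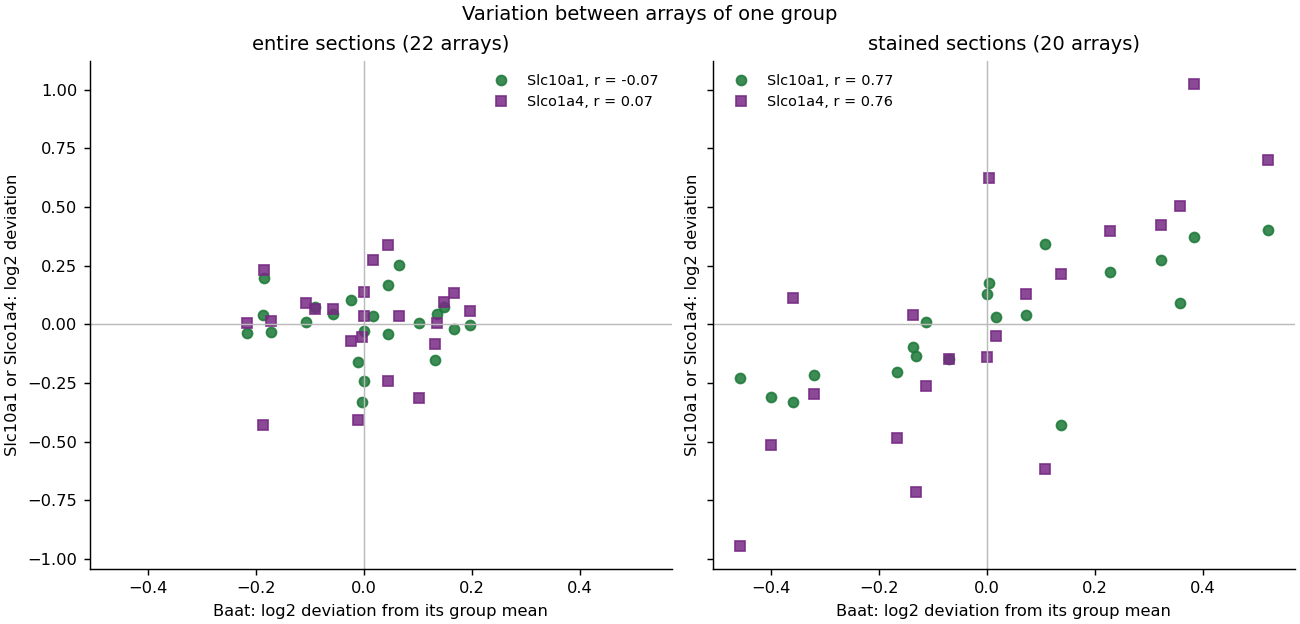
Log2 deviations of Slc10a1 and Slco1a4 from their group means against those of Baat, for 22 arrays of entire sections (left) and 20 of stained sections (right). The points rise together in stained sections (r = 0.77 and 0.76) and form no line in entire sections (r = -0.07 and 0.07). Such r values were not computed for other probe sets.

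Over all 52 arrays, which share dose, preparation and quality, the probe sets most like each gene were described by Pearson's r among 5752 candidates. Slco1a4 was closest to af029240_g_at (0.88) and x75309_at (0.86), Baat to rc_aa893454_at (0.84) and m83143_g_at (0.84), Slco1a1 to rc_ai639324_at (0.81) and rc_aa926193_at (0.80), Cyp27a1 to ab008807_g_at (0.80) and rc_ai104520_s_at (0.79), Slc10a1 to m23601_at (0.79) and j04591_at (0.78), and Cyp7a1 to m58587_at (0.77) and rc_aa800786_at (0.74). They are given by ID because the table names no genes.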

How the data were processed

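Total RNA of rat liver sections was hybridized to one-colour arrays, 1 array a sample. The deposited values are linear intensities in whole numbers, for 8799 probe sets (59 of them controls) on 52 arrays; no source used here states the authors' software, scaling or presence calls. Intensities under 4, the 10th percentile of the positive ones, were raised to that floor before log2. Because the 2% trimmed means of arrays differed by over 5%, the 8740 non-control probe sets were quantile normalized between arrays. Groups from the labels were tested in R 4.3.3 by limma 3.58.1 (two-sided, by lmFit and eBayes), and a probe set was called at a Benjamini-Hochberg adjusted p under 0.05. The adjustment covered all probe sets that exceeded the floor on 1 or more arrays fitted. The 3 dose groups of a preparation were fitted together, the contrasts between entire and stained sections used 6 groups, and microdissected liver used all 15. The procedure was also run on simulated data with independent noise. Those data held no differences in RNA quality between arrays, so the run does not cover that feature of these arrays. Correlations of deviations from group means used 100000 permutations within groups (NumPy 2.4.6, Python 3.11.15). Upstream sequences were aligned with Biopython 1.88 and plots drawn with matplotlib 3.10.9. Arrays have no read depth: their number and the signal over background limit precision. Alternatives were the deposited scale centred on array medians, a floor of 20, a stricter filter on dim probe sets, other sets of groups in the fit, array weights, a block on the replicate number, a trend and robust prior, a GAPDH covariate, and fits without the 6 arrays in doubt or without each replicate. Replicate numbers were not taken as pairs, because in no pair of groups were all same-numbered correlations over 0.1. That rule cannot show that no samples were shared. Between entire controls and entire 0.29% CA, 5 of 8 same-numbered correlations were over 0.1. There 4 of 8 arrays correlated best with their own number. Every gene of the accession list was named, and the 2 most similar probe sets of each. Lists of further pathway genes, a panel of treatment genes and cell markers, fixed by symbol, were not used, since 0 of 8740 accessions matched. The genes, lists and alternatives were chosen with earlier results of these data known.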

Additional observations from a re-analysis of the deposited data

Results flagged for a closer look

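Among 36 sets of 4 to 10 arrays (6 genes in each replicated group), 2 held an array far from the others by Dixon's criterion, which flags about 1 in 20 by chance. Stained control replicate 8 had a Cyp7a1 value of 3.99 on the normalized log2 scale (intensity 14), where the nearest of the other 7 controls was at 7.31. Stained 0.29% CA replicate 7 had a Slco1a1 value of 3.94 (intensity 10), where the nearest of its group was at 5.52. Both arrays are in doubt for their 5S rRNA intensity, 232 and 241, and had trimmed means of 69.4 and 56.3. Without stained control replicate 8 the Cyp7a1 difference was -0.98 at 0.29% CA and -0.53 at 0.54% CA, in place of -0.51 and -0.05, and neither was called.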

How the results depend on the processing

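No called difference changed its sign in any alternative. Changes in the count of called genes by over 1.5 times, or to or from 0, were as follows. Smaller changes are left out. They include calls gained by Cyp7a1 or Cyp27a1 at 0.29% CA in entire sections, and by Slc10a1 between stained and entire controls. Shares in brackets are of all probe sets tested that were called, in the setting and then in the main fit. On the deposited scale the count was 0 in place of 2 for 0.29% CA in entire sections (7.5%, 11.2%). It was 1 in place of 2 for 0.54% CA in entire (11.3%, 15.8%) and in stained sections (4.94%, 6.31%). In microdissected liver it was 1 in place of 4 (3.75%, 12.9%). With all 15 groups in the fit it was 0 at 0.29% CA in entire sections (6.48%, 11.2%). At 0.54% CA in stained sections it was 4 (11.6%, 6.31%). There a floor of 20 also gave 4 (9.92%), the GAPDH covariate 0 (3.8%), and the fit without the 6 arrays in doubt 1 (5.44%). Array weights gave 1 in place of 0 between the doses in entire sections (4.24%, 1.01%) and 1 in microdissected liver (4.03%, 12.9%). There the stricter filter on dim probe sets gave 2 (9.74%). The GAPDH covariate gave 0 in place of 3 for stained against entire controls (4.88%, 30.2%). Leaving out each array in turn gave 1 to 2 at 0.54% CA in stained sections, and 2 to 3 in microdissected liver. With the replicate number as a block, all 10 counts kept within 1.5 times of those reported, for example 2 at 0.54% CA in entire sections (17.8%, 15.8%). Whether a number marks a shared animal or day is not stated. The median correlation of same-numbered arrays was highest between stained controls and stained 0.29% CA. There 6 of 7 correlated over 0.1 and 3 of 7 best with their own number. The cause of the changes in count was not tested. Dim signal limits Slco1a1 and Cyp7a1 in LCM-reference-time and microdissected liver, where values reach 0 and 12.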

Other observations

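In stained sections, arrays numbered 5 and 6 held the highest Slco1a4 values of the control and of the 0.29% CA group. In that order they were 2163 and 1962 in controls, and 1750 and 2079 at 0.29% CA. Slco1a1 was also highest on number 5 of both groups, at 113 and 114. The labels do not say that a number marks a shared animal or day, and these arrays were singled out after their values were seen.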
